A study of Homo sapiens with 30 samples.

Results

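In K562, an established human chronic myeloid leukaemia cell line, contacts of the CTCF site named S2 beside NOTCH1 were compared between cells mutated at S2 and unedited (WT) cells, with the viewpoint placed on S2 itself. The comparison uses 4 of the 30 4C-seq libraries of the study, chosen by their titles as the S2-mutant and WT libraries of the S2 viewpoint, 2 of each. The other 6 libraries of this viewpoint, from cells mutated at the CTCF site S4, at S5 or at both, keep S2 intact as labelled and serve as a second reference. All cells were grown as 1 line in the same medium, and no group received a drug or other agent. The labels do not give the kind of mutation, its length, or whether mutated cells were 1 clone or a pool. They call the libraries of a condition independent without naming separate cultures, so the p-values below measure the spread between libraries, which may be technical.

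CTCF binds DNA and, with cohesin, holds many chromatin loops at their anchors. When a loop anchor loses CTCF, contacts between the anchors generally weaken and neighbouring domains can mix. 4C-seq counts the restriction fragments that were ligated to 1 chosen fragment, the viewpoint, so a read at a fragment end records a contact of that place with the viewpoint. NOTCH1 encodes a receptor of the Notch pathway, which controls cell fate in blood and other tissues. Because the viewpoint here carries the mutated site, the mutation can alter both the contacts and the fragment from which they are read, and these data do not tell the 2 apart.

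On hg19 chromosome 9 the viewpoint window ran from 139383372 to 139388371, with its centre at 139385872. It was inferred from the reads, as the 5-kb window with the most reads over the 10 libraries of the viewpoint. Its most covered end lay 2276 bp from that centre. The other viewpoints were placed in the same way. The NOTCH1 promoter viewpoint lay 57.4 kb towards the telomere and the S4 viewpoint 137.9 kb. RefSeq places NOTCH1 on the minus strand, so it is transcribed from the promoter towards S2. A total of 429711 fragment ends of chromosome 9 lay over 5 kb from the centre, 3240 of them within 500 kb, called near-cis here. Ends closer than 5 kb were left out because undigested and self-ligated fragments are read there.

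Contacts are seen only at DpnII sites, so the sequence at a target sets what can be read. The 250 bases upstream of the NOTCH1 start, chr9:136546049-136546298 of GRCh38.p14 on the minus strand, are shown from RefSeq because they hold 0 copies of the DpnII site GATC. They also hold 0 copies of CATG (NlaIII) and GTAC (CviQI), the sites of the second enzymes that the protocol names. All 3 sites read the same on both strands. Of 35116 promoter windows of this length, 35.8% held GATC, 47.6% CATG and 25.5% GTAC.
NOTCH1 promoter: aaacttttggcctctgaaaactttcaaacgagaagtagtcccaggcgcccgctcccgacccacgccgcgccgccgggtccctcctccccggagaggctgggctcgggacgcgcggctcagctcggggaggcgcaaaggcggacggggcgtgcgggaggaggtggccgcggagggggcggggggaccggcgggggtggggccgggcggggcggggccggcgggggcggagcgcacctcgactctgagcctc
Contact of S2 with the promoter was therefore read at ends beside this stretch, 59 of them within 10 kb of the promoter viewpoint. The sequence of the S2 site itself is not shown.

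The WT libraries held 1798253 and 2326487 chromosome 9 reads and the S2-mutant libraries 3500663 and 3874844. Near-cis reads numbered 499045 and 653924 in WT and 668932 and 739507 in the S2 mutant, so the shares below rest on similar depth. Reads inside the mask took 60.3% and 59.8% of all WT reads and 76.6% and 76.7% of all S2-mutant reads, and a single end at 139388148 held most of them (56.9% and 56.3% against 71.5% and 71.9%). Of the 29 ends in the mask, 27 had reads in both WT libraries, and all 27 also had reads in both S2-mutant libraries. Another end had 1 read in WT replicate 1 and 0 in the other WT library and in both S2-mutant libraries. At the 27 ends the counts themselves differed in both directions. For example, the end at 139381109 had 2142 and 3098 reads in WT and 4 and 10 in the S2 mutant. The end at 139386330 had 2224 and 2730 in WT and 47333 and 47917 in the S2 mutant.

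The S2-mutant profile was built from far fewer fragment ends than any other. An end was called well read when it held at least 0.01% of a library's near-cis reads, a measure added after the data were examined. The WT libraries had 1058 and 1086 well-read ends and the S2-mutant libraries 224 and 214, against 521 to 833 in the 6 libraries of the other mutants. In the S2 mutant those ends held 98.8% and 98.9% of near-cis reads, close to the 98.04% and 98.2% in WT. The 35 and 36 most read ends already held 50% of S2-mutant reads, where WT needed 135 and 140 ends and the other mutants 65 to 85.

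Expressed as the effective number of ends (the inverse Simpson index, which weights each end by its share of reads), WT libraries had 323 and 331 and S2-mutant libraries 88.9 and 91.2. The other mutants lay between them, at 174 to 208. Like the well-read ends, this measure was added after the data were examined. The 2 S2-mutant libraries were below all 8 libraries that keep S2 (exact two-sided permutation p = 0.0444, Benjamini-Hochberg adjusted 0.097 over 24 values). A plain count of ends with any read did not set the S2 mutant apart in this way. Thinned to 499045 near-cis reads, 57.2% and 56.6% of ends had a read in WT, 36.3% and 36.03% in the S2 mutant and 32.1 to 39.6% in the other mutants. The S2 mutant had more ends with only 1 to 10 reads, 812 and 859 against 503 and 484 in WT and 391 to 734 in the other mutants, counts that are not at matched depth.

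**Figure D1:**
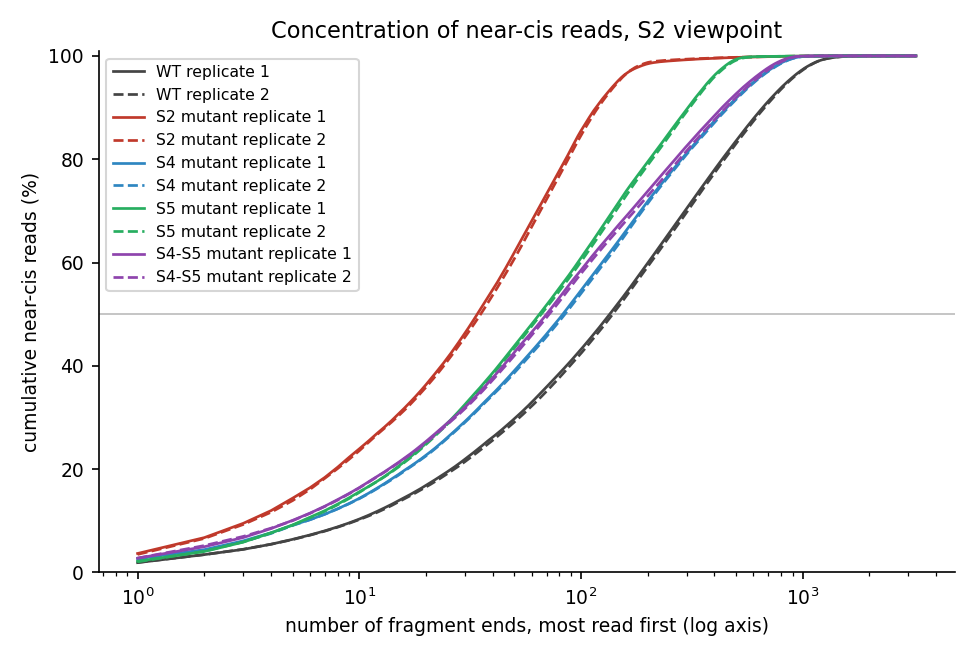
Cumulative share of near-cis reads (%) against the number of fragment ends taken from the most read downwards (log axis), 1 line for each of the 10 libraries of the S2 viewpoint, with replicate 2 dashed. The S2-mutant lines cross 50% at 35 and 36 ends and the WT lines at 135 and 140, with the other mutants between them.

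Of the 1048 ends well read in both WT libraries, 153 (14.6%) were well read in both S2-mutant libraries. Another 709 (67.7%) still had reads there but were well read in neither library, and 173 (16.5%) had no read in either. Of the same WT ends, 49.9% were well read in both libraries mutated at S4, 34.0% at S5 and 48.9% at both. These shares are limited by how many ends were well read in both libraries of a mutant. That number was 210 for S2, 816 for S4, 518 for S5 and 789 for S4-S5. Conversely, of 210 ends well read in both S2-mutant libraries, 153 (72.9%) were well read in both WT libraries and all 210 had reads in at least 1 of them. Taken library by library, 72.9 to 74.1% of the S2 mutant's well-read ends were well read in a WT library. For the other mutants it was 63.9 to 69.7%. Most well-read ends of the S2 mutant were thus also well read in WT, as in the other mutants, with reads distributed differently among them. Of all 3240 near-cis ends, 1048 were well read in both WT libraries. The replicates agreed on which ends were well read: 93.8% of those of S2-mutant replicate 1 were well read in replicate 2. Log2 reads over near-cis ends correlated at r = 0.96 between the S2-mutant replicates and 0.99 between the WT replicates, and at 0.52 to 0.53 between WT and S2 mutant, a description across ends of a shared locus. Between WT and the other mutants r was nearly as low, at 0.55 to 0.59. It was 0.65 to 0.70 between the S2 mutant and the other mutants, and 0.68 to 0.70 among those.

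With that basis, near-cis reads were closer to the viewpoint in the S2 mutant. Within 50 kb of the centre lay 34.05% and 34.1% of near-cis reads in WT and 51.9% and 51.9% in the S2 mutant. The other mutants had 41.1 to 44.6%, so the S2 mutant was above all of them as well. The share fell to 11.1% and 11.1% between 50 and 100 kb from 15.1% and 15.1% in WT, to 30.5% and 30.4% between 100 and 250 kb from 39.7% and 39.7%, and to 6.59% and 6.62% between 250 and 500 kb from 11.1% and 11.2%. On log scales the decline of reads per end with distance had a slope of -0.67 ± 0.0017 in WT and -1.003 ± 0.0036 in the S2 mutant (SD, n = 2). The other mutants had slopes of -0.96 to -0.86.

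The gain near the viewpoint lay on both sides of it. Towards the promoter, over the stretch into which NOTCH1 is transcribed, the share rose from 24.5% ± 0.0047 to 36.3% ± 0.097 (SD, n = 2), with 32.9 to 35.7% in the other mutants. The 100 kb on the centromeric side rose from 15.8% ± 0.035 to 20.9% ± 0.0044, above the 13.6 to 19.03% of the other mutants. The ratio of telomeric to centromeric reads fell from 1.48 ± 0.00017 to 1.16 ± 0.0034 (log2), below the 1.36 to 2.04 of the other mutants. Further out on the centromeric side, from 100 to 500 kb, the values were 10.6% and 10.7% in WT and 10.1% and 10.0% in the S2 mutant, within the range of the 8 libraries that keep S2.

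Beyond the promoter the shares fell. From the promoter to S4 they were 20.2% and 20.2% in WT and 17.1% and 17.2% in the S2 mutant, below the 18.1 to 21.1% of the other mutants. In the 100 kb telomeric of S4 they were 19.9% and 19.9% in WT and 11.3% and 11.1% in the S2 mutant, where the other mutants had 15.0 to 21.5%. From there to 500 kb WT had 8.99% and 8.998% and the S2 mutant 4.401% and 4.38%, and the S4 mutant was lower still at 4.00% and 3.96%. The 215 and 214 well-read WT ends in the 100 kb telomeric of S4 became 32 and 28 in the S2 mutant, and the most read of them held 21.6% and 19.7% of the mutant's reads in that stretch against 4.75% and 4.49% in WT. With ends that had any read counted instead of reads, the share within 50 kb was higher in the S2 mutant by log2 0.25 and that of the 100 kb telomeric of S4 by 0.090, so the sign of the second turned.

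**Figure D2:**
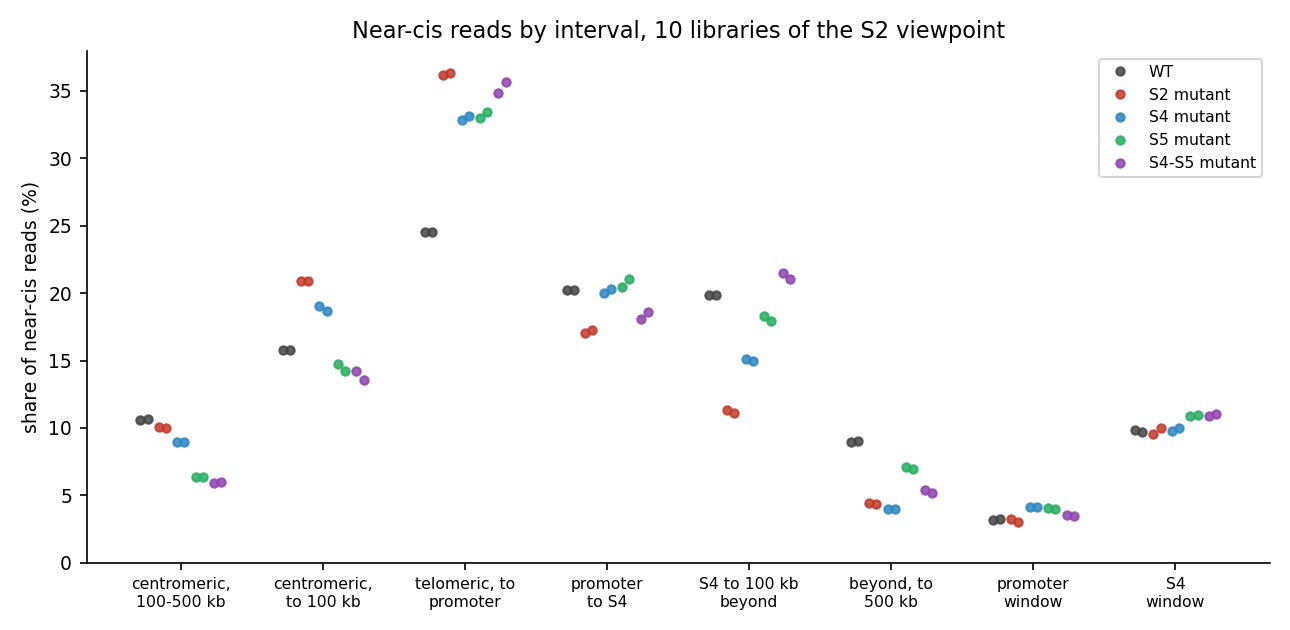
Share of near-cis reads (%) in 6 adjoining intervals and in 20-kb windows at the promoter and S4, 1 point for each of the 10 libraries of the S2 viewpoint, coloured by genotype. S2-mutant points lie above all others from S2 to the promoter and in the nearest 100 kb on the centromeric side, lowest from the promoter to 100 kb beyond S4, and at 9.59% and 10.0% in the S4 window.

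For 15 of the 24 values per library, both S2-mutant libraries lay outside the range of the 8 libraries that keep S2. Of the 24 values, 9 were added after the data were examined. These are the effective number of ends, the ends with a read at matched depth and the bands beyond 500 kb. With 2 libraries against 2, the exact permutation test cannot go below p = 0.333. Against all 8, the smallest two-sided exact p is 0.0222, which 50 to 100 kb, the nearest 100 kb on the centromeric side, the telomeric ratio, the promoter-to-S4 interval, the 100 kb beyond S4 and the band from 0.5 to 1 Mb reached (Benjamini-Hochberg adjusted 0.0889). In all, 11 of the 24 values had an exact p under 0.05 and 0 passed after adjustment. The test treats all 10 libraries as exchangeable, although they are 2 from each of 5 genotypes, so its p-values are descriptive.

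The shares at the 2 other viewpoints overlapped between the groups. Within 10 kb of S4 the viewpoint had 9.83% and 9.71% of near-cis reads in WT and 9.59% and 10.0% in the S2 mutant, so the groups overlapped. Within 10 kb of the promoter it had 3.17% and 3.21% in WT and 3.25% and 3.04% in the S2 mutant, again overlapping. The other mutants had 3.45 to 4.17% at the promoter, so both S2-mutant libraries lay below all of them there. At S4 the other mutants had 9.78 to 11.05%, a range that overlapped the S2 mutant. The S4 share of the mutant was carried by 22 well-read ends in each library, against 65 and 66 in WT, and the promoter share by 8 and 7 against 30 and 30. Their direction depended on scaling: as shares of all chromosome 9 reads outside the mask the S4 and promoter windows were higher in the S2 mutant by log2 0.23 and 0.21.

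The 10-kb bin holding S4 (139520001 to 139530000) took 5.32% and 5.29% in WT and 5.28% and 5.53% in the S2 mutant. By edgeR's quasi-likelihood test its log2 fold of 0.026 (SE 0.028) did not pass the threshold of 0.05 (adjusted p = 0.367), and it rose by 0.25 scaled to chromosome 9, 0.71 with TMM factors and 1.14 with DESeq2, all of which passed. Against the mean of the other mutants it was higher by log2 0.19 (SE 0.02, edgeR adjusted p = 8.75e-06). Its most read end in the mutant, at 139525732, went from 455 and 535 reads in WT to 13346 and 14003, while the bin's well-read ends went from 32 and 32 to 12 and 13. As a share of near-cis reads this end rose from 0.0912% and 0.0818% to 1.995% and 1.894%. The other mutants also had more than WT there, at 0.655 to 0.886%. The bin total was thus nearly equal while the ends carrying it differed.

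The bins flanking S4 changed little in total. The bin from 139510001 had 3.39% and 3.33% in WT and 3.58% and 3.74% in the S2 mutant (log2 0.12, SE 0.04, edgeR adjusted p = 0.0181). This rise was smaller than that over WT with S4 mutated (log2 0.35), with S5 mutated (0.29) or with both (0.24). The bin from 139530001 had 3.92% and 3.97% in WT and 3.91% and 3.63% in the S2 mutant (log2 -0.07, SE 0.04, adjusted p = 0.155), and turned positive under the other 3 scalings. In the mutant 1 end at 139537431 held 62.7% of that bin's reads in replicate 1, against 7.63% in WT replicate 1. The bin from 139500001, the next one towards the promoter, rose from 3.201% ± 0.031 to 4.59% ± 0.088 (log2 0.52, SE 0.03, adjusted p = 3.46e-09).

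At the promoter the 3 bins moved differently. The bin holding the promoter viewpoint (139440001 to 139450000) rose from 1.95% and 1.95% to 2.45% and 2.32% (log2 0.29, SE 0.04, edgeR adjusted p = 9.27e-06), but with its most read end left out it stood at -0.047 and did not pass. It also rose over WT where S2 was intact, by log2 0.27 with S4 mutated, 0.26 with S5 and 0.13 with both. The S2 mutant was higher than the mean of these mutants by only 0.07 (SE 0.03), and its libraries overlapped theirs. The bin on the telomeric side (from 139450001) fell from 2.22% and 2.17% to 0.543% and 0.651% (log2 -1.88, SE 0.07, adjusted p = 2.15e-10), and against the other mutants by a similar -1.83. The bin on the S2 side (from 139430001) fell slightly, from 2.13% and 2.17% to 1.94% and 1.80% (log2 -0.20, SE 0.04, adjusted p = 0.00119), a direction that turned under the other 3 scalings. The steepest change around the promoter was therefore just beyond it, on the side away from S2, and the bin from 139460001 beside it also fell, from 2.83% ± 0.050 to 1.02% ± 0.11 (log2 -1.47, SE 0.06). The bin from 139460001 fell with every other mutation too, by log2 -0.64 (S4), -0.73 (S5) and -0.85 (both) against WT. The S2 mutant lay below all 8 libraries that keep S2 there.

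Next to the mask, all 4 bins were higher in the S2 mutant. The bin from 139400001 held the most reads of any, 10.6% and 10.5% in WT and 19.1% and 19.2% in the S2 mutant (log2 0.85, SE 0.02, edgeR adjusted p = 9.50e-12). The bin from 139370001 rose from 2.76% and 2.72% to 6.08% and 6.03% (log2 1.14, SE 0.04), above all 8 libraries that keep S2, as was the first. The bins from 139390001 and 139360001 rose less, by log2 0.54 and 0.18, and did not lie above all 8. On non-blind ends alone, those whose fragments are cut by the second enzyme, the bin from 139390001 turned to -0.10.

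**Figure D3:**
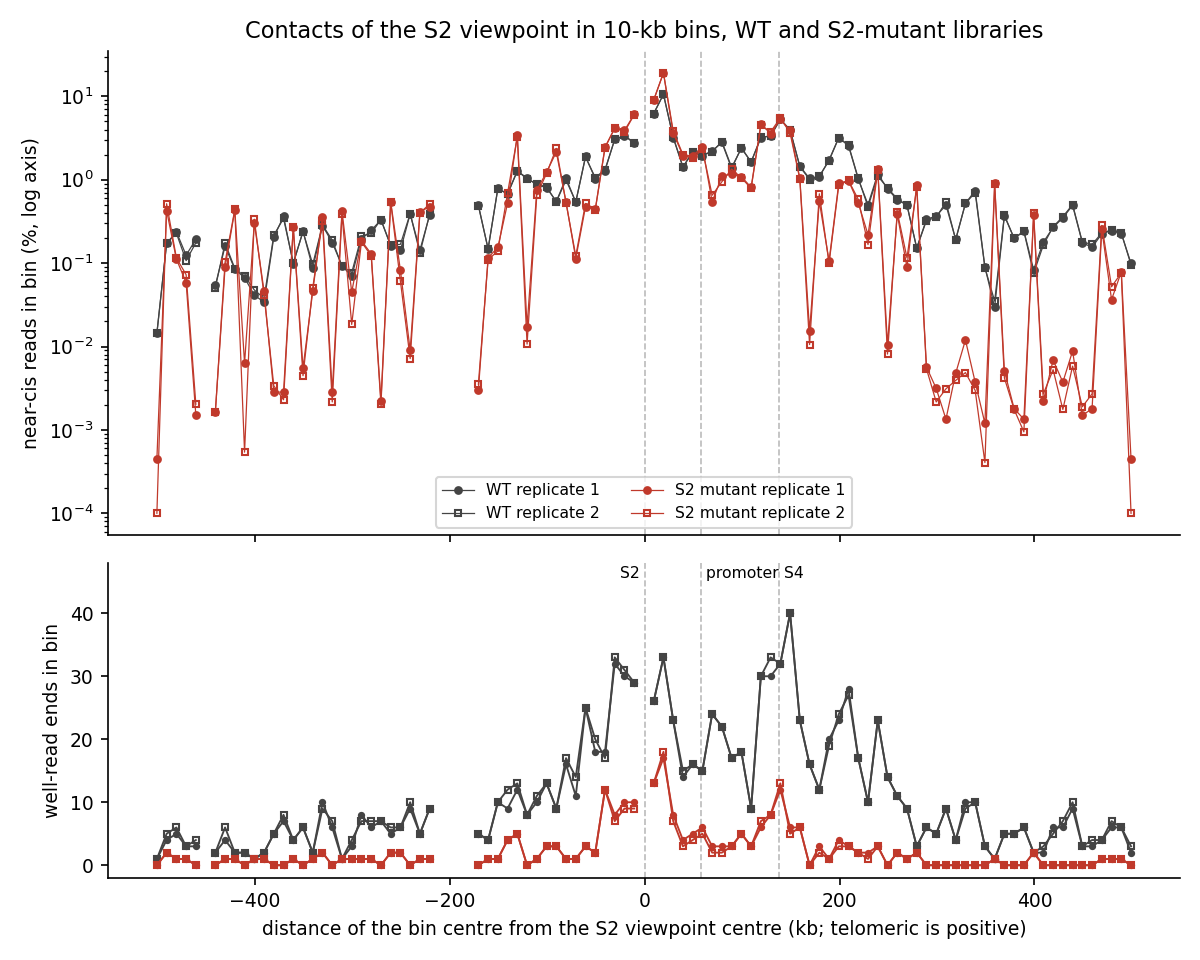
Upper panel: share of near-cis reads (%, log axis) in each tested 10-kb bin of the 2 WT and 2 S2-mutant libraries against distance from the viewpoint (kb, telomeric positive), with gaps at the mask and at untested bins and 2 points with 0 reads drawn at 0.0001%. Lower panel: number of well-read ends in each bin; beyond 250 kb the S2-mutant lines sit at 0 in many bins where both WT libraries have several such ends.

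Over all near-cis bins, edgeR called 88 of 95 between S2 mutant and WT (92.6%), 27 higher and 61 lower, 62 of them by at least 2-fold. Against the same WT libraries the S5 mutant gave 88 calls (30 higher, 58 lower), the S4 mutant 82 and the S4-S5 mutant 80, with 38, 35 and 28 by at least 2-fold. For the S2 mutant the median log2 fold was -1.03, and the split between directions moved with the scaling: 31 higher and 58 lower scaled to chromosome 9 (median -0.81), 39 and 51 with TMM factors (-0.35), and 44 and 44 with DESeq2 (0.08). With the most read end of each bin left out it was 17 higher and 70 lower. Both S2-mutant libraries lay above all 8 libraries that keep S2 in 18 bins and below all 8 in 44. Against the mean of the other mutants, edgeR called 93 of 95 bins (97.9%), 35 higher and 58 lower, again 62 by at least 2-fold.

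In 31 bins neither S2-mutant library had a well-read end, while the WT libraries had 1 to 16. These bins are chosen by the low reads of the mutant, so their log2 folds of -8.78 to -4.38 follow from the choice and are given as a description. Of the other 64 bins, 30 were called lower. Of the 31 bins without a well-read end, 26 lay over 250 kb from the viewpoint, where 50 bins were tested, and 0 lay within 100 kb. The median bin over 250 kb away had 5 well-read ends in either WT library and 0 in either S2-mutant library.

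**Figure D4:**
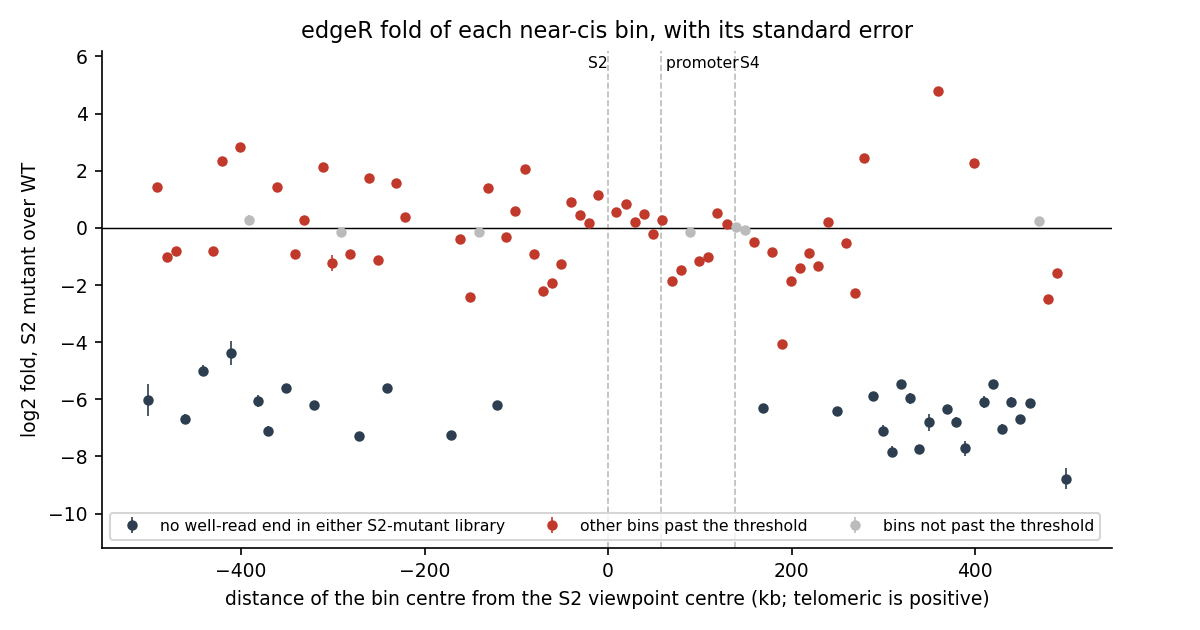
edgeR log2 fold of S2 mutant over WT for each of 95 near-cis bins against distance from the viewpoint (kb, telomeric positive), with bars for the standard error. The 31 dark points mark bins with no well-read end in either S2-mutant library, which places them lowest by construction, and the other bins lie between -4.06 and 4.78.

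The 8 bins that fell most all had no well-read end in either S2-mutant library. The bin from 139720001 went from 0.740% and 0.702% of reads in WT, spread over 10 well-read ends, to 25 and 22 reads in the S2 mutant (log2 -7.75, SE 0.13, edgeR adjusted p = 8.36e-13). The bin from 139690001 went from 0.496% and 0.539%, at 9 well-read ends, to 9 and 23 reads (log2 -7.83). For the same 2 bins, against the same WT libraries, the S5 mutant had log2 folds of -8.60 and -8.42 and the S4 mutant -1.19 and -2.70.

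On the centromeric side, the bin from 139210001 fell from 0.499% and 0.488% to 20 and 26 reads (log2 -7.24), that from 139110001 from 0.330% and 0.333% to 15 and 15 reads (-7.28), and that from 139010001 from 0.364% and 0.343% to 19 and 17 reads (-7.11). The first 2 lay below all 8 libraries that keep S2. The telomeric bins from 139680001 (21 and 16 reads) and 139770001 (9 and 7 reads) were likewise below all 8. The outermost telomeric bin, from 139880001, had 495 and 622 reads in WT and 3 and 0 in the S2 mutant, a WT share 455 times the mutant's (95% Poisson interval 156 to 2206, counting error only). In the bins from 139880001 and 139010001 the S5 mutant was lower still, at log2 -9.22 and -8.05 against WT. The S2 mutant had -8.77 and -7.11 there, the S4 mutant -3.00 and -1.28 and the S4-S5 mutant -2.11 and -1.79.

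Of the 8 bins that rose most, 4 turned to lower when the most read end of each bin was left out. The bin from 139740001 went from 0.0295% and 0.035% to 0.902% and 0.878% (log2 4.78, SE 0.14, edgeR adjusted p = 2.23e-11), and 1 end at 139745003 accounted for it, with 13 and 22 reads in WT and 6028 and 6490 in the S2 mutant. Without the most read end of each bin (chosen over all 10 libraries) the fold of that bin turned to -4.56. At 138988644 an end with 6 and 4 reads in WT had 2004 and 2482 in the S2 mutant, and at 138960300 one with 8 and 7 had 2826 and 3225. The end at 138988644 also had 462 and 607 reads in the S4-S5 mutant, but 6 to 18 in the S4 and S5 mutants. Their bins, from 138980001 and 138960001, rose by log2 2.84 and 2.35 and turned to -3.92 and -3.27 without the most read end, as did the bin from 139070001 (2.12 to -4.17). Against WT, the bin from 138960001 also rose in the S5 mutant (log2 2.34) and the S4 mutant (1.43), and fell in the S4-S5 mutant (-0.97). The S5 rise lay at other ends, as 138960300 had 6 and 25 reads there.

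The other 4 kept a smaller rise or none with that end removed. The bin from 139290001, 90.9 kb towards the centromere, had 0.548% and 0.545% in WT and 2.15% and 2.38% in the S2 mutant (log2 2.05, SE 0.06, edgeR adjusted p = 1.63e-11), above all 8 libraries that keep S2, and 0.98 without the most read end. The bins from 139660001 (log2 2.46), 139780001 (2.28) and 139120001 (1.74) rose as well, each to above all 8. Without the most read end the first 2 stood at 1.51 and 1.70, and the last at 0.026, where it no longer passed. In the bin from 139660001 the end at 139661886 had 15 and 15 reads in WT and 3628 and 3634 in the S2 mutant. Its share of near-cis reads was 0.0030% and 0.0023% in WT and 0.542% and 0.491% in the S2 mutant. The S5 mutant also had more than WT there, at 0.201% and 0.190%.

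Of the 6 bins that WT contacted most beyond 50 kb, those from 139460001 and 139580001 fell, those from 139500001 and 139510001 rose and those from 139520001 and 139530001 did not pass. The bin from 139580001 fell from 3.2003% and 3.19% to 0.910% and 0.863% (log2 -1.85, SE 0.04, edgeR adjusted p = 1.81e-12), below all 8 libraries that keep S2. Mutation of S4, of S5 and of both gave log2 folds of -0.97, -0.81 and -0.62 there, against the same WT libraries. Its well-read ends went from 23 and 24 in WT to 4 and 3 in the S2 mutant.

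Tests on ends in place of reads gave few calls. Counting covered ends, edgeR called 0 of 95 bins (0 at an unadjusted p under 0.05). Counting well-read ends, added after the data were examined, it called 5 of 92 bins, 3 higher and 2 lower (23 at an unadjusted p under 0.05), relative to each library's own number of such ends. In that count the S4 window gained: its share of well-read ends was higher in the S2 mutant by log2 0.72 and that of the promoter window by 0.29. Whether single ends with many reads reflect many ligation events or amplification of few was not tested, since the reads carry no molecular identifier.

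Of all chromosome 9 reads outside the mask, the near-cis ends held 69.98% and 69.98% in WT and 81.6% and 82.1% in the S2 mutant. The other mutants had 86.2 to 88.2%. Every mutant thus had a smaller share than WT beyond 500 kb, and that of the S2 mutant was the largest among the mutants. Beyond 10 Mb, few chromosome 9 reads remained in the S2 mutant. Between 10 and 40 Mb from the viewpoint lay 5.71% and 5.63% of WT reads outside the mask and 0.415% and 0.378% of S2-mutant reads, below the 0.934 to 1.98% of the other mutants. More than 40 Mb away on the same side of the 18.4-Mb stretch without fragment ends (the centromere region), the values were 3.22% and 3.201% in WT and 0.125% and 0.105% in the S2 mutant, against 0.434 to 0.814% in the other mutants. In these 2 bands the S2 mutant had 4 and 1 ends with at least 0.01% of the near-cis total in each library, where WT had 187 and 190, and 105 and 106.

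Between 2 and 5 Mb the S2 mutant was also lower, with 2.37% and 2.26% against 3.26% and 3.23% in WT, and between 5 and 10 Mb with 2.71% and 2.65% against 5.67% and 5.73%. Nearer than 2 Mb it was higher than WT. From 0.5 to 1 Mb the S2 mutant had 8.06% and 7.98%, above WT with 6.22% and 6.29% and above the 3.89 to 4.80% of the other mutants. From 1 to 2 Mb it had 3.92% and 3.79% against 3.76% and 3.72% in WT and 1.51 to 2.31% in the other mutants. The 66041 and 71908 mutant reads between 0.5 and 1 Mb sat on few ends too, 18 well-read ones in each library against 214 and 224 in WT, and 1 end held 23.2% and 23.4% of them.

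Across the stretch without ends, on the other arm, the S2 mutant had 0.781% and 0.752% against 2.18% and 2.21% in WT. That was above the 0.092 to 0.21% of the other mutants, but a single end held 91.9% and 89.7% of the S2-mutant reads there. It lies in the 1-Mb bin from 20000001, which went from 322 and 405 reads in WT to 5880 and 6073 (log2 3.98, SE 0.13, edgeR adjusted p = 1.05e-28). The bin from 9000001 likewise rose, to 419 and 630 reads at 1 end from 21 and 41, also on the other arm. The other far bin among the 3 that rose most was on the viewpoint's own side, in the bin from 139000001, of which only the 413 ends beyond 500 kb were counted. It went from 1.01% and 1.02% to 2.82% and 2.76% (log2 1.46, SE 0.04), with 66.3% and 67.6% of the mutant's reads at 1 end.

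**Figure D5:**
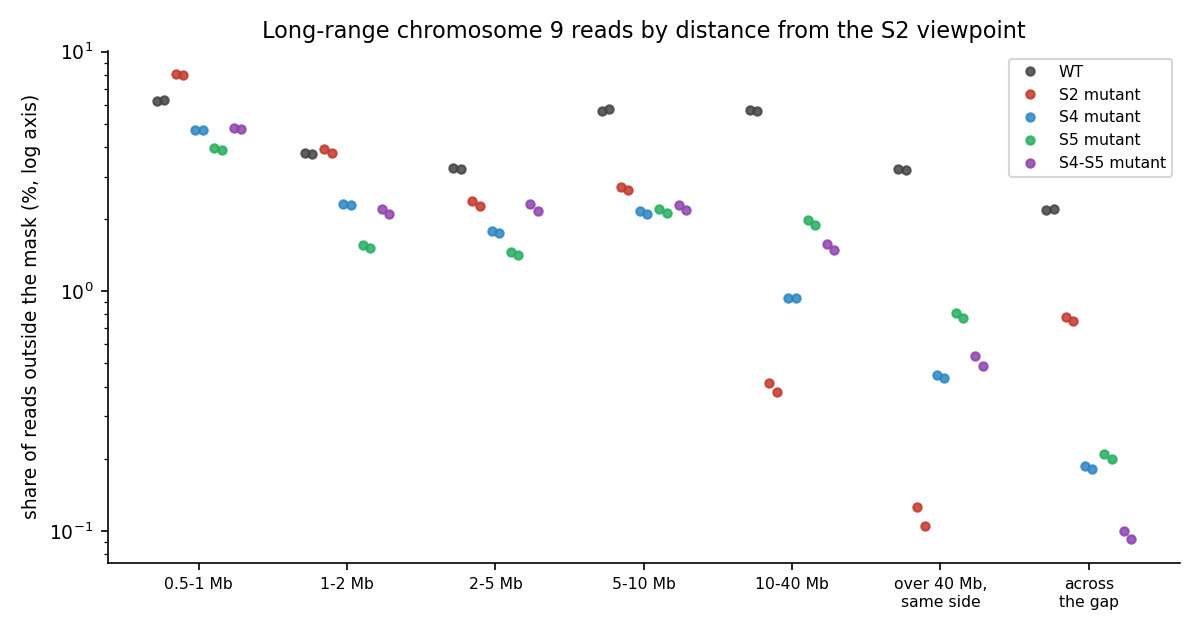
Share of chromosome 9 reads outside the mask (%, log axis) in 7 bands of distance from the S2 viewpoint, 1 point for each of the 10 libraries, coloured by genotype. S2-mutant points are the highest from 0.5 to 1 Mb and the lowest from 10 Mb outwards on the same side of the gap, while the WT points are the highest in every band from 2 Mb on.

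Over 1-Mb bins beyond 500 kb, edgeR called 93 of 96 between S2 mutant and WT (96.9%), 5 higher and 88 lower, with a median log2 fold of -6.98. The other mutants, set against the same WT libraries, gave 94 calls (S4, median -5.95), 91 (S5, -7.16) and 91 (S4-S5, -3.63). Against the mean of the other mutants it called 61 of 96 (63.5%), 20 higher and 41 lower, with a median of -0.79. In 23 of these bins the 2 S2-mutant libraries had 3 or fewer reads together. The 3 called bins with the lowest fitted folds, an order that counts of 0 and 1 do not support, began at 26000001, with 130 and 210 reads in WT and 0 in both S2-mutant libraries (at least 118-fold lower, with a floor of 3 reads over both), at 7000001, with 674 and 772 against 0 and 1, and at 36000001, with 512 and 727 against 1 and 0. None of the 3 passed the test against the other mutants (edgeR adjusted p = 0.622 for the bin from 7000001), whose own log2 folds against WT there were -8.38 or lower.

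The S2 locus was also read from the other 2 viewpoints, where the mutation lies in the target and not in the viewpoint. From S4, the bin holding S2 (from 139380001) had 5.98% and 5.79% of near-cis reads in WT and 4.57% and 4.69% in the S2 mutant (log2 -0.35, SE 0.03, edgeR adjusted p = 2.85e-10; 0.23 with TMM factors). From the promoter it had 3.26% and 3.22% in WT and 4.14% and 4.27% in the S2 mutant (log2 0.38, SE 0.03, adjusted p = 2.24e-34; 0.71 scaled to chromosome 9 and 1.03 with TMM factors). Within 10 kb of S2 the promoter viewpoint had 5.59% ± 0.0066 in WT and 5.71% ± 0.052 in the S2 mutant (SD, n = 2), so little of that rise was left in the wider window. Against the mean of the other mutants the S4 value was -1.07 (SE 0.02) and the promoter value 0.09 (SE 0.02). The promoter value averages over a spread. From the promoter the bin holding S2 had 5.35% and 5.40% in the S5 mutant, above the S2 mutant. It had 3.78% and 3.80% in the S4-S5 mutant and 3.08% and 3.03% in the S4 mutant. All 27 ends of the bin had reads in both S2-mutant libraries from S4, and 21 of 23 from the promoter. Seen from S4, the bin holding the promoter rose by log2 0.89 (SE 0.04, adjusted p = 1.01e-13).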

How the data were processed

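4C-seq was made from K562 chromatin with DpnII and then NlaIII or CviQI and amplified by PCR, per the labels' protocols. Each table holds whole read counts per fragment end of chromosome 9, which the authors deposited without normalization, per the file headers. Per the submitters' processing notes, hg19 and deepTools were used. The sources used here do not give the aligner or read filters. Other deposited columns were not used.

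Reads at near-cis ends were added up over bins of 10 kb, kept with a mean of at least 10 reads, and tested with edgeR 4.0.16 (quasi-likelihood F test, near-cis totals as library sizes, all 10 libraries of the viewpoint in 1 fit, Benjamini-Hochberg adjusted, two-sided). Bins of 1 Mb further out needed a mean of 20 reads and were scaled to reads outside the mask. Values per library were compared by exact permutation. The fit was tested on simulated data.

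Bins named were the 8 most changed in each direction among those called with no overlap between groups, those at and beside the other viewpoints, the 6 highest in WT beyond 50 kb and the 2 on each side of the mask, and 3 far bins in each direction. The members, lists and rules were chosen with earlier results of these data known. Alternatives changed 1 choice at a time: scaling, DESeq2 1.42.0, bin width, mask, window, filters, ends, capped ends at the 95th percentile, the libraries in the fit, and each library left out. Replicate deviations were also correlated between genotypes, which does not settle whether replicate numbers pair the libraries. Signal on other chromosomes and the S2 sequence were not analysed here.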

Additional observations from a re-analysis of the deposited data

Results flagged for a closer look

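The S2 bin moved in opposite directions from the 2 other viewpoints in the S2 mutant: its log2 fold against WT was -0.35 from S4 and 0.38 from the promoter, with both mutant libraries on the same side of both WT libraries each time. The difference between viewpoints was not tested, and with TMM factors the value from S4 was 0.23. Within 10 kb of S2 the promoter viewpoint had 5.59% in WT and 5.71% in the S2 mutant.

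Reads within 5 kb of the S2 viewpoint centre, which the comparisons leave out, took 76.7% ± 0.115 of chromosome 9 reads in the S2 mutant (SD, n = 2), against 60.1% ± 0.358 in WT and 61.3 to 72.0% in the other mutants. What this shift does to the contact shares was not tested.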

How the results depend on the processing

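The count of 88 called near-cis bins stayed within 1.5 times under other scalings, DESeq2, a 20-kb mask, other filters, non-blind or capped ends, fewer libraries in the fit and either added choice of mask or most read end. It was 174 of 186 bins of 5 kb, 48 of 50 of 20 kb, 43 of 46 within 250 kb and 180 of 192 within 1 Mb, which follow the number of bins tested, and 0 with covered ends and 5 with well-read ends. By edgeR on covered ends, the contrast with the other mutants also gave 0 (0 at an unadjusted p under 0.05), as did the far bins against WT (10 at an unadjusted p under 0.05, of 73 tested). Far bins of 500 kb gave 158 of 165. Leaving out 1 library gave 87 to 89 near-cis calls, 88 to 93 against the other mutants and 91 to 93 far calls. With the replicate number as a block, near-cis calls were 90 (28 higher, 62 lower), those against the other mutants 93 and far calls 93. Replicate deviations correlated at -0.34 to 0.30 over 10 pairs of genotypes, and at 0.0 between WT and S2 mutant. Weak correlations cannot exclude pairing. In every mutant the S4 window share was higher in replicate 2 than in replicate 1, while in WT it was lower.

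Of 29 named bins under these alternatives, 477 of 562 values kept direction and side of the threshold, 47 no longer passed and 28 turned sign. With covered ends, these turned: 138980001 to -0.73, 139430001 to 0.23, 139440001 to -0.10, 139450001 to 0.13, 139460001 to 0.0089, 139510001 to -0.11, 139530001 to 0.21, 139660001 to -0.085 and 139780001 to -0.14. With the most read end of each bin left out, 138960001 turned to -3.27, 138980001 to -3.92, 139070001 to -4.17, 139440001 to -0.047 and 139740001 to -4.56. On non-blind ends 139390001 turned to -0.096, 139520001 to -0.032 and 139530001 to 1.301. The bin from 139430001 turned to 0.026 (chromosome 9), 0.49 (TMM), 0.92 (DESeq2), 0.0125 (20-kb mask) and 0.46 (well-read ends), and that from 139530001 to 0.16, 0.62, 1.05 and 0.15 in the first 4 of these settings. The bin holding S4 turned to -0.046 within 250 kb, and ranged from -0.0077 to 0.060 when 1 library was left out, turning without S2-mutant replicate 2. The S2 bin from S4 turned to 0.23 with TMM factors.

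Of the 15 near-cis library values, 7 of 197 alternative values turned sign. With covered ends the log2 folds were 0.045 (50 to 100 kb), 0.053 (100 to 250 kb), 0.095 (telomeric ratio), 0.12 (promoter to S4) and 0.090 (100 kb beyond S4), and 0.25 within 50 kb, no longer outside the range of the other libraries. Promoter to S4 was 0.057 with non-blind ends only and 0.25 in well-read ends. The promoter and S4 windows, in that order, were 0.21 and 0.23 as shares of chromosome 9, 0.19 and 0.22 with a 20-kb mask, -0.093 and -0.069 within 250 kb, 0.60 and 0.15 with non-blind ends only, 0.11 and 0.20 in covered ends, 0.37 and 0.10 with 5 kb to each side, -0.33 and 0.17 with 20 kb, 0.29 and 0.72 in well-read ends and 0.25 and 0.33 in capped ends. Leaving out 1 library they ranged from -0.071 to 0.028 and from -0.027 to 0.034, within 50 kb from 0.61 to 0.61 and the 100 kb beyond S4 from -0.84 to -0.81. The causes of these changes were not tested.

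With 2 libraries a group and no molecular identifiers, counting error understates the error of a single end. Mutation, viewpoint fragment and library preparation cannot be told apart for the S2 mutant here.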
